A study of Mus musculus with 10 samples.

Results

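Regions of the autosomes that carried an ATAC-seq peak in cKIT+ cells of the mouse testis and none in 4C-sorted spermatocytes are described here across 8 chromatin libraries. Peaks of all 8 libraries that overlapped by at least 1 bp were joined, which gave 202046 regions on chromosomes 1 to 19. A region was taken as open only in cKIT+ cells where a peak had been called in both libraries of the Smarca5 conditional knockout (cKO) and in wild-type replicate 2, and in none of the 4 libraries of 4C-sorted cells. The much shorter list of cKIT+ wild-type replicate 1 was free to hold a peak or not. Members were thus chosen by measured peak calls, and the calls that chose them are not a finding. The rule gave 49808 regions, 24.7% of all, beside 3313 regions found only in 4C-sorted cells and 17717 found in all 8 libraries. "Open" means here that the authors' peak caller had called a peak, and a region without a call was not shown to be closed.

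The cKO libraries came from Smarca5 fl/delta; Ddx4-Cre+ mice and the wild-type libraries from C57BL6 mice, which by their labels carry neither the floxed allele nor Cre. Each of the 4 groups held 2 libraries of 50000 sorted cells: cKIT+ cells of cKO and of wild type, and cells of cKO and of wild type that were taken at 4C DNA content after Hoechst staining and are labelled pachytene or pachytene-like. Ddx4-Cre acts in germ cells, so somatic cells of a cKO testis keep the floxed allele beside the deleted one. The protocol text of the cKIT+ libraries describes both sorts, and its last line, which names cKIT+ cells, set their group. The protocols of all 10 samples, chromatin and RNA, describe a wash of the tubules meant to remove Leydig cells. RNA came from 2 whole-testis single-cell samples, both cKO, with 15000 cells processed in each, so no comparison of RNA has a wild type. The labels do not say that replicates came from separate animals, and p-values then measure only the spread between these samples.

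KIT is the receptor for stem cell factor and appears on spermatogonia as they commit to differentiation under retinoic acid. It is also carried by Leydig cells and mast cells. Promoters rich in CpG are open in most cell types, while distal regions and CpG-poor promoters tend to be open in some types and closed in others. SMARCA5 is the motor subunit of the ISWI remodelers, which slide and space nucleosomes.

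The promoters below show what chromatin of this kind looks like at a gene start. Each window runs from 250 bases before to 50 bases after the start given by RefSeq (GRCm38.p6, the mm10 build), is written 5′ to 3′ on the gene's strand, and was chosen because a cKIT+ only region covers that start. Capitals mark matches to any of 17 short motifs, searched on both strands. For factors of general promoters these were the GC box (letters GGGCGG), the box named by its own letters CCAAT, the TATA box (letters TATAAA), the palindromic E-box (letters CACGTG), and the cyclic AMP response element (letters TGACGTCA). For ETS factors the letters were CCGGAAGT, for the nuclear respiratory factor NRF1 they were GCGCATGCG, and for cell cycle factors of the E2F family they were TTTCCCGC. For germline factors the letters were CNCCTCAG with STRA8, while those searched with MYB proteins were AACNGCC, those searched with RFX proteins were GTTGCCAT, and those searched with DMRT proteins were ACATTGT. For SOX proteins the letters searched were CCATTGTT, for the insulator protein CTCF they were CNAGGNGGC, and for half-sites of nuclear receptors they were AGGTCA. For GATA factors the letters searched were AGATAA, and for the dimeric factor AP-1 they were TGANTCA. The letters of the GC box and E2F motifs can overlap. The first 5 windows belong to the strongest regions at ends of named genes that also had a peak in cKIT+ wild-type replicate 1.

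Trim21 (chr7:102565433-102565732, minus strand): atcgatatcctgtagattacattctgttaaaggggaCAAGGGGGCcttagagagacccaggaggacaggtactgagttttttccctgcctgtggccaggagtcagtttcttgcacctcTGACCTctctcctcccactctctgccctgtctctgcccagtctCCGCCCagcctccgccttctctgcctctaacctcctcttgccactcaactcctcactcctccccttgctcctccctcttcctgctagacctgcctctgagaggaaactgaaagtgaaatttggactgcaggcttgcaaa
Hsd3b7 (chr7:127800359-127800658, plus strand): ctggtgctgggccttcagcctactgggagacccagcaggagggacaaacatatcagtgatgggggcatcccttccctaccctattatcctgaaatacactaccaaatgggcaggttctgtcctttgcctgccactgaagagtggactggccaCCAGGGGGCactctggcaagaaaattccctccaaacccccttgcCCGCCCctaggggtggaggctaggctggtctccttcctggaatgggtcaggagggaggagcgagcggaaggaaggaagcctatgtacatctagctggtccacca
Trim12c (chr7:104353300-104353599, minus strand): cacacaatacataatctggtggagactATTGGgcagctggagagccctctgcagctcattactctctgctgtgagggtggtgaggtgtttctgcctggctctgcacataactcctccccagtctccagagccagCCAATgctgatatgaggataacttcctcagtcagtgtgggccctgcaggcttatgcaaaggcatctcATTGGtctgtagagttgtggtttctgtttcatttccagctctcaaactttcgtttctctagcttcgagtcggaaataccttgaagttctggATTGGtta
Fam13a (chr6:59024453-59024752, minus strand): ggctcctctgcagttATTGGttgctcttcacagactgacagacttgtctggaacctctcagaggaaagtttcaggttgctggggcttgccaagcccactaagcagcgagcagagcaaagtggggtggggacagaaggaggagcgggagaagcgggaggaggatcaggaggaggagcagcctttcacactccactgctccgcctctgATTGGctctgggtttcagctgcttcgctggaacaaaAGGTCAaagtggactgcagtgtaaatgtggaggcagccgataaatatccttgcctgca
Ankrd2 (chr19:42035777-42036076, plus strand): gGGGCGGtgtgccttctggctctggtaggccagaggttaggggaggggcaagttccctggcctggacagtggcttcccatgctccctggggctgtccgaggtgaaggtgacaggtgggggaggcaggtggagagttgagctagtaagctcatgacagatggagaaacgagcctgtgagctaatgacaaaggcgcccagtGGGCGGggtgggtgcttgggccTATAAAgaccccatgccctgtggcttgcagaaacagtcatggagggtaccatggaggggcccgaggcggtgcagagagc

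All 300 bases of the Trim21, Trim12c, Fam13a and Ankrd2 windows and 248 of the 300 bases of the Hsd3b7 window lay inside the region. Trim21 encodes a ubiquitin ligase that binds antibodies inside cells, and its window holds a GC box, a match to the CTCF letters and a nuclear receptor half-site on the opposite strand. Hsd3b7, an enzyme of bile acid synthesis, has a GC box and a match to the CTCF letters. Trim12c has 4 CCAAT matches and no GC box.

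The next 3 windows are those of genes from the spermatogonial, retinoic acid and meiotic lists whose start was covered by such a region.

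Rxrg (chr1:167598112-167598411, plus strand): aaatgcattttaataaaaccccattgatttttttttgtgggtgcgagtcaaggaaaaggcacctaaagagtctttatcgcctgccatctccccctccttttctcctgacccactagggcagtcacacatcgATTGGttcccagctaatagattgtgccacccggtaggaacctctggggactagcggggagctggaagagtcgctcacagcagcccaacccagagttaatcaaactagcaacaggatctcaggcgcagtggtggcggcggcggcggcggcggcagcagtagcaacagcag
Aldh1a1 (chr19:20492333-20492632, plus strand): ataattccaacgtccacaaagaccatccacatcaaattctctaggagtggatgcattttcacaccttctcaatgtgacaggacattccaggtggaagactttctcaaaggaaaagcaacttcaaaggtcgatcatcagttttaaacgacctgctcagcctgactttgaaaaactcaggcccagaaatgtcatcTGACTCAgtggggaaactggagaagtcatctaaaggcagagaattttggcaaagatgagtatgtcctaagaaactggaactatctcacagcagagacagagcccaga
Tspan8 (chr10:115817034-115817333, plus strand): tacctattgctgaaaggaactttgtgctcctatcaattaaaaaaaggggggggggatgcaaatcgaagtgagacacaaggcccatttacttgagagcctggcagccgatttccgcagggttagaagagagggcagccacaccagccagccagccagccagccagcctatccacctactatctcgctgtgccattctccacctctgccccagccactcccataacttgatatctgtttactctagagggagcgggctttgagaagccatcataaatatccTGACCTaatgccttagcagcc

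Rxrg encodes a retinoid X receptor, Aldh1a1 an enzyme that makes retinoic acid from retinal, and Tspan8 a tetraspanin used as a surface marker of spermatogonial stem cells. The Aldh1a1 window lay wholly inside its region and holds 1 match to the AP-1 letters, while 190 bases of the Rxrg window and 154 of the Tspan8 window lay inside theirs.

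Windows of a Leydig cell marker and a macrophage marker are added because those markers matter for the RNA comparison further on. They were chosen after the values had been seen.

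Hsd3b6 (chr3:98814394-98814693, minus strand): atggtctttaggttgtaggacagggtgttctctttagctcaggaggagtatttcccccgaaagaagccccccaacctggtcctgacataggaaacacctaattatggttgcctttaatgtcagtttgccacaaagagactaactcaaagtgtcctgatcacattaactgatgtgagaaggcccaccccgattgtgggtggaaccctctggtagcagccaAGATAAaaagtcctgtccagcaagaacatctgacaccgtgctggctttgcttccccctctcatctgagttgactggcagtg
C1qc (chr4:136892865-136893164, minus strand): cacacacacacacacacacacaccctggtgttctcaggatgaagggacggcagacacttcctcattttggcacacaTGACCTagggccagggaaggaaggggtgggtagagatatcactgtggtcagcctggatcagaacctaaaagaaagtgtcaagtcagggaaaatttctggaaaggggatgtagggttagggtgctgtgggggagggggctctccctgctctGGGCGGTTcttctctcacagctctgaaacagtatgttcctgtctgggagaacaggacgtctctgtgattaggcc

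Hsd3b6 is a steroid-making enzyme of adult Leydig cells, with 261 bases of its window inside the region and 1 match to the GATA letters. C1qc, a chain of complement C1q made by macrophages, has a GC box that overlaps a MYB match, and a half-site on the opposite strand.

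MicroRNA hairpins also lay in these regions. Of 919 hairpins on the 18 autosomes that the RefSeq table covers, 200 overlapped a merged region of any kind. A cKIT+ only region was overlapped by 30 (3.26% of the 919), a region found only in 4C-sorted cells by 2 and a region of all 8 libraries by 80. The cKIT+ only regions were 24.7% of all merged regions. Both genomic copies of miR-199a, and both members of the miR-190 pair, were among the 30. The mature sequences are given 5′ to 3′ with the seed, bases 2 to 8, in capitals, and show which hairpins share a seed.

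mmu-miR-449c-5p (Mir449c): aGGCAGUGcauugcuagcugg
mmu-miR-199a-5p (Mir199a-1 and Mir199a-2): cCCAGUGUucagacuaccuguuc
mmu-miR-199a-3p (Mir199a-1 and Mir199a-2): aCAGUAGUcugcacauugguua
mmu-miR-190a-5p (Mir190a): uGAUAUGUuugauauauuaggu
mmu-miR-190b-5p (Mir190b): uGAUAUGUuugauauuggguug

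The miR-190a and miR-190b arms share the seed GAUAUGU. The region at Mir449c (chr13:113035967-113036219), which lies within the host gene Cdc20b, ranked first among regions at ends of named genes with a peak in all 4 cKIT+ lists. Its fold enrichment was 11.7 and 11.4 in cKO replicates 1 and 2, against 4.71 and 11.8 in wild-type replicates 1 and 2. The fold enrichments here and below are the authors' values over the local background of each library, so they rank regions within a library and were not compared between libraries. The Mir199a-2 region had 7.57 and 7.30 in cKO and 6.995 in wild-type replicate 2, and the Mir199a-1 region had 4.26 and 5.29 in cKO and 4.39 in wild-type replicate 2. Wild-type replicate 1 had no peak at either copy.

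The 3 full cKIT+ lists held 112518 to 127222 peaks, the list of cKIT+ wild-type replicate 1 held 44697, and the 4 lists of 4C-sorted cells held 54059 to 59417. No read counts come with the lists, so depth is unknown and no counting interval is given for shares of regions. The regions open only in cKIT+ cells took up 40.8% and 44.0% of the autosomal peaks in cKO replicates 1 and 2, against 13.7% and 45.3% in wild-type replicates 1 and 2. Their median fold enrichment was 4.82 and 5.27 in cKO, against 4.02 (over 5923 regions) and 4.48 in wild type. These stood close to the medians of all autosomal peaks, which were 4.36 and 4.76 in cKO and 3.83 and 4.18 in wild type. Peaks covered 16808 and 14811 kb of the regions in cKO, against 1187 and 17601 kb in wild type. Of the peaks in these regions, 9.39% and 10.4% stood in the top 10% of their own list in cKO, against 3.92% and 9.18% in wild type. Because the rule asks for a peak in both genotypes, it fixes the calls in 3 of the 4 cKIT+ lists, and nothing about the genotypes can be read from these shares.

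At the edges of the rule, 2434 of the 49808 regions (4.89%) had a weakest required peak with a −log10 q under 1.5, where the median over all of them was 3.78. Just outside, 21214 regions had peaks in 2 of the 3 required lists and none in 4C-sorted cells, and their median width was 193 bp. Another 5131 met the cKIT+ side and had a peak in 1 of the 4 lists of 4C-sorted cells, with a median −log10 q of 1.63 for that peak.

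The list that the rule left free, cKIT+ wild-type replicate 1, held a peak in 5923 of the 49808 regions, or 11.9%. Over all 82491 autosomal regions with peaks in the other 3 cKIT+ lists, 35.2% had one. The share climbed with the number of 4C-sorted lists that shared the region, to 39.0% of 5131 regions with 1 such list, 48.5% of 3323 with 2, 55.4% of 3173 with 3 and 84.1% of 21056 with 4. Within the cKIT+ only regions the share was 18.7% in the strongest of 10 equal groups by mean rank, 20.5% in the next and 5.62% in the weakest. The same library had a peak in 67.8% of the 28032 regions shared by all 4 lists of 4C-sorted cells, where the other cKIT+ lists had 84.5% and 81.8% in cKO and 78.1% in wild type. So this library shared far fewer of the cKIT+ only regions than of the regions that 4C-sorted cells also had. Its list is also the shortest, and with all lists cut to its length the share was 19.0%.

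**Figure D1:**
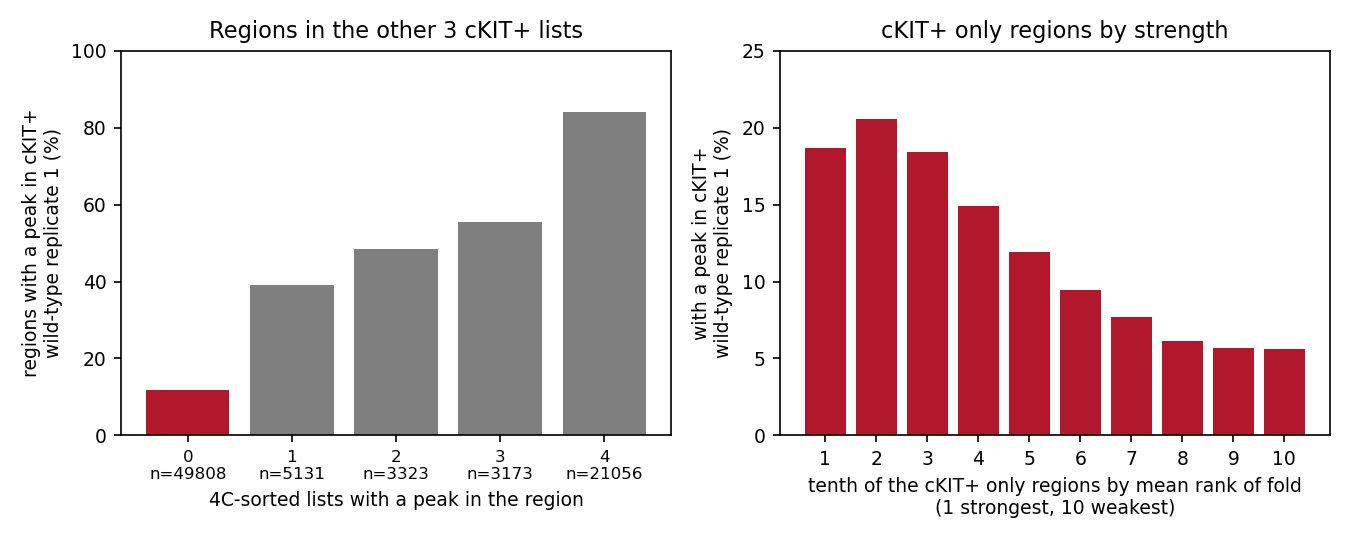
Share of regions with a peak in cKIT+ wild-type replicate 1 (vertical axes, percent). Left, regions with a peak in the other 3 cKIT+ lists by the number of 4C-sorted lists that share them, with n below each bar; right, the 49808 cKIT+ only regions in 10 equal groups by mean rank of fold enrichment. The bar for 0 lists stands at 11.9% and the bar for 4 lists at 84.1%, and in the right panel the weakest group stands at 5.62%.

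The regions open only in cKIT+ cells lay mostly away from gene ends, and were shorter than regions of all 8 libraries or of 4C-sorted cells only. Their median width was 373 bp (quartiles 240 and 576), against 570 bp for regions found only in 4C-sorted cells, 1060 bp for regions of all 8 libraries and 289 bp over all merged regions. A region spans all the peaks joined in it, so its width can grow with the number of lists that share it. The part of the joining in these widths was not tested. Only 5547 of the cKIT+ only regions (11.1%) lay within 1 kb of an annotated gene end, against 20.8% of the 4C-sorted only regions, 66.3% of the regions of all 8 libraries and 17.5% of all regions. A further 28948 (58.1%) lay inside a gene more than 1 kb from its ends and 15313 (30.7%) outside genes. Within 1 kb of a RefSeq gene start, on the 18 autosomes with starts in the table, lay 4.64% of them, against 12.2% of the 4C-sorted only regions, 55.6% of the regions of all 8 libraries and 9.81% of all regions. The median distance to such a start was 20.9 kb. The regions followed each other at a median distance of 15.1 kb, 38.9% of gaps were 10 kb or less, and 21.9% of regions had a region of all 8 libraries within 10 kb. They made up 22.4% (chromosome 5) to 26.3% (chromosome 16) of the merged regions of each chromosome.

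**Figure D2:**
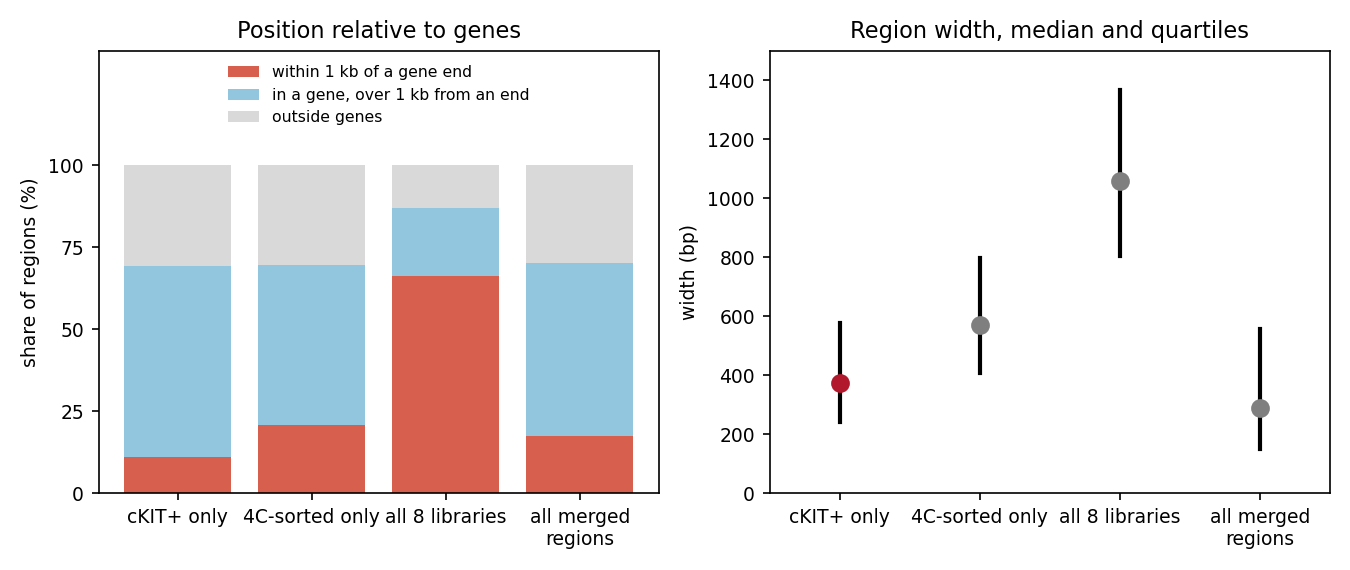
Left, share of regions (percent) within 1 kb of a gene end, inside a gene and outside genes; right, region width (bp) as median (point) and quartiles (line), for regions open only in cKIT+ cells, only in 4C-sorted cells, in all 8 libraries, and all merged regions. The gene end share is 11.1% in the first group and 66.3% in the regions of all 8 libraries, and the median widths are 373 and 1060 bp.

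Of the 10 strongest regions more than 1 kb from any gene end, 5 lay inside genes. At the top stood chr13:116192852-116193036, 185 bp wide and 38.7 kb from the nearest gene end, with fold enrichments of 21.996 and 25.95 in cKO and 18.2 and 24.7 in wild type. Next came a region of 168 bp inside Cd44, which encodes a cell surface receptor for hyaluronan. It had 22.9 and 26.0 in cKO, against 10.4 and 19.0 in wild type. A region inside Greb1, an estrogen-responsive gene, had 17.7 and 19.3 in cKO and 16.3 and 16.3 in wild type. The 10 were 162 to 364 bp wide, and 8 of them had a peak in wild-type replicate 1 as well. Over all cKIT+ only regions the strong ones were not the narrow ones, since the median width was 455 bp in the strongest of 10 groups by rank and 341 bp in the weakest.

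The 20 strongest regions at ends of named genes with a peak in all 4 cKIT+ lists, by mean rank of fold in the 3 required lists, ranked within the top 1.69% to 6.78%. Trim21 had 10.98 and 12.4 in cKO, against 3.24 and 10.7 in wild type. Hsd3b7 had 10.4 and 11.5 in cKO, against 3.45 and 9.77 in wild type. Regions also lay at ends of Arg1 (arginase, an enzyme of the urea cycle and of some macrophages), Clec5a (a lectin receptor of myeloid cells), P2ry13 (a purine receptor of microglia and macrophages) and Calcrl (a receptor for calcitonin gene-related peptide and adrenomedullin). Clec5a had 12.2 and 10.1 in cKO, against 7.27 and 8.48 in wild type. Cdc25a, a phosphatase that activates cyclin-dependent kinases, had a region 231 bp from its gene end with 10.9 and 12.5 in cKO, against 2.98 and 6.91 in wild type. Erg, a transcription factor of the ETS family, had one 775 bp from its end with 11.7 and 9.77 in cKO, against 7.20 and 7.20 in wild type.

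**Figure D3:**
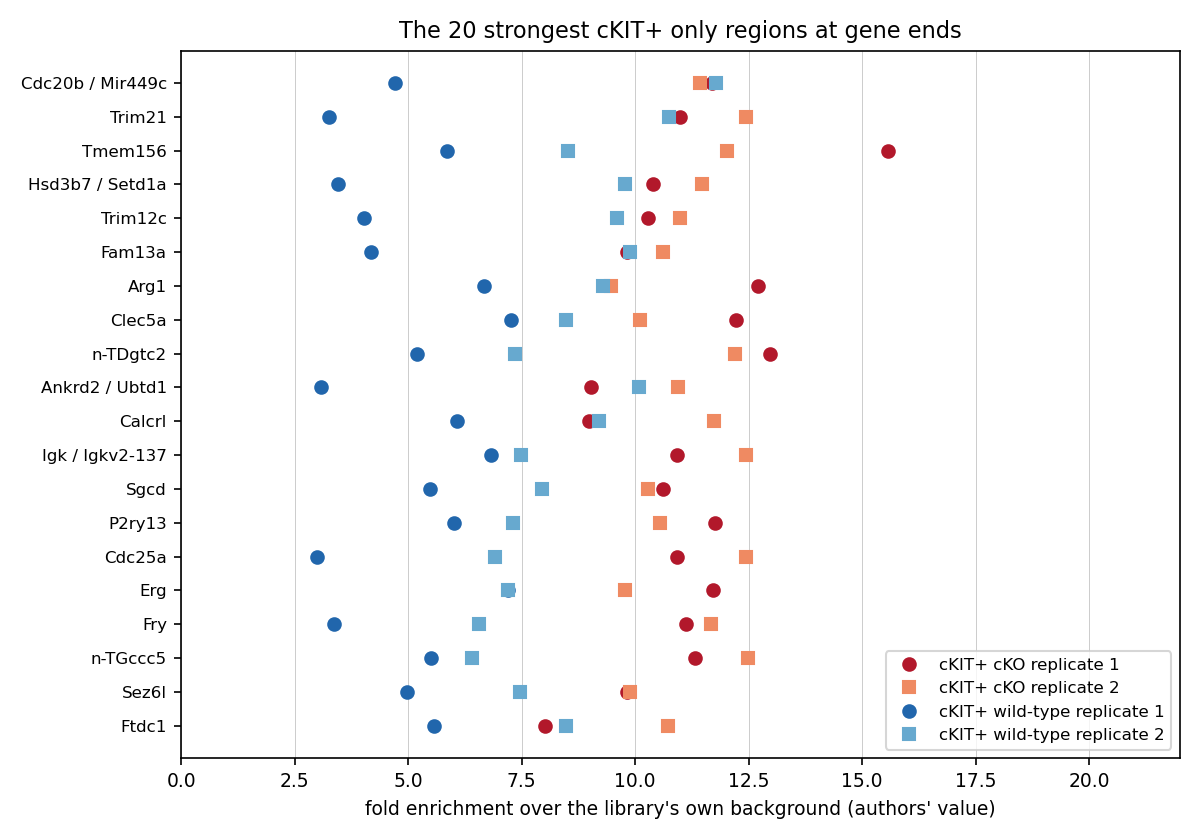
Fold enrichment over the library's own background (horizontal axis, the authors' value) in the 4 cKIT+ libraries for the 20 strongest cKIT+ only regions at ends of named genes that had a peak in all 4 lists, 1 row per region with the genes at it. Values of cKO replicate 1 reach 15.6 at Tmem156, and those of wild-type replicate 1 stay between 2.98 and 7.27.

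The 10 widest regions measured 2231 to 2715 bp. The widest (chr15:10177219-10179933) covered a start of Prlr, the prolactin receptor, and had 4.01 and 4.03 in cKO, against 3.49 and 3.08 in wild type. A region of 2370 bp covered a start of Amhr2, the receptor for anti-Müllerian hormone, and one of 2237 bp lay at an end of Gstm1, a glutathione transferase. The mean rank of fold in the 3 required lists, where 0% is the strongest peak of a list, was 72.1% for Prlr, 87.1% for Amhr2 and 65.1% for Gstm1, and ran over the 10 regions as far as 31.5% on the strong side and 97.5% on the weak side.

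RNA levels are given as CPM, UMI counts scaled to the total UMIs of a cell class in a sample, for cKO samples 1 and 2 in that order. Class names rest on marker genes and mean cells that resemble the named type. Genes at the 20 strongest gene-end regions were highest, by mean CPM over 8 classes, in different classes. Trim21, Trim12c, Clec5a, Calcrl and P2ry13 were highest in macrophage-like cells, and Hsd3b7 and Fam13a in Leydig-like cells. Trim21 stood at 6.86 and 8.42 CPM in macrophage-like cells, against 4.13 and 2.34 CPM in differentiating spermatogonia. Clec5a stood at 17.1 and 13.5 CPM and Calcrl at 20.6 and 10.1 CPM in macrophage-like cells, levels that rest on few UMIs. In sample 2 Fam13a stood at 9.23 CPM in Leydig-like and 11.8 CPM in macrophage-like cells. Tmem156, Sgcd and Sez6l were highest in round spermatids, and Ankrd2 and Fry in Sertoli-like cells. For Fry this rested on sample 2, since in sample 1 macrophage-like cells stood at 75.4 CPM and Sertoli-like cells at 57.0 CPM. Setd1a, Cdc25a and Erg were highest in differentiating spermatogonia, and Cdc20b and Ubtd1 in spermatocytes. Among the genes at the 10 widest regions the class of the highest level varied. By mean CPM, Fads3 was highest in differentiating spermatogonia at 4.13 and 5.84 CPM, although Leydig-like cells stood at 4.49 CPM in sample 1. Ptpa, with 120 and 134 CPM, was highest in leptotene or zygotene spermatocytes. Prlr, Gstm1 and Amhr2 were highest in somatic classes. Gstm1 stood at 14999 and 18876 CPM in Leydig-like cells, against 60.5 and 68.2 in differentiating spermatogonia. Prlr stood at 1222 and 521 CPM in Leydig-like cells, against 2.75 and 2.73 in differentiating spermatogonia. Amhr2 stood at 337 and 961 CPM in Sertoli-like cells, against 7.57 and 14.8 in differentiating spermatogonia.

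Some long genes held many regions. Tshz2, a zinc finger transcription factor gene of 440 kb, held 45 within its body or 10 kb of it, out of 121 merged regions there. Arhgap26, Msi2, Nav2, Kalrn, Wwox and Kcnma1 held 40 to 44 each, and Arid1b, Dlgap1 and Nfia 36 each. Kcnma1, a potassium channel gene, had the highest proportion of its merged regions in this class among the 10, at 53.3%. Tshz2 had 281 and 178 CPM in Leydig-like cells and 16.5 and 17.1 in differentiating spermatogonia, while Msi2, an RNA-binding protein gene of stem cells, was highest in Sertoli-like cells at 262 and 263 CPM. Over 20665 protein-coding genes the median was 1 region per gene within 10 kb, 62.5% of genes had at least 1 and 645 had 10 or more.

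Which genes of the germline lists had such a region within 1 kb of a gene end was counted next, beside 13.2% of 20665 protein-coding autosomal genes. The retinoic acid list had 6 of 20, among them Rxrg, Stra8, Aldh1a1, Cyp26b1 and Dhrs3. Of 39 genes of WNT, Notch, Hedgehog and TGF-beta signalling 8 had one, among them the Hedgehog receptor Ptch1 and its partner Smo. The other lists stood at 4.76% to 13.8%, with 4 of 29 genes of meiotic entry (Stra8, Spo11, Iho1, Spata22), 4 of 30 of the mitotic cell cycle (Ccnd2, Ccnd3, Ccnb2, Mcm5), 5 of 38 homeobox genes, 3 of 24 of KIT, GDNF and FGF receptor signalling (Fgfr1, Fgf8, Akt1), 2 of 22 spermatogonial transcription factors (Etv5, Utf1), 1 of 14 ISWI and partner subunits (Baz2a), 2 of 31 spermatid genes (Akap3, Tekt4) and 1 of 21 Polycomb and DNA methylation genes (Ezh1). A region of all 8 libraries lay at a gene end of 19 of 22 spermatogonial transcription factors, 26 of 29 genes of meiotic entry and 8 of 20 retinoic acid genes, where 55.9% of protein-coding genes had one. Etv5, Utf1, Stra8 and Iho1 had both kinds.

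**Figure D4:**
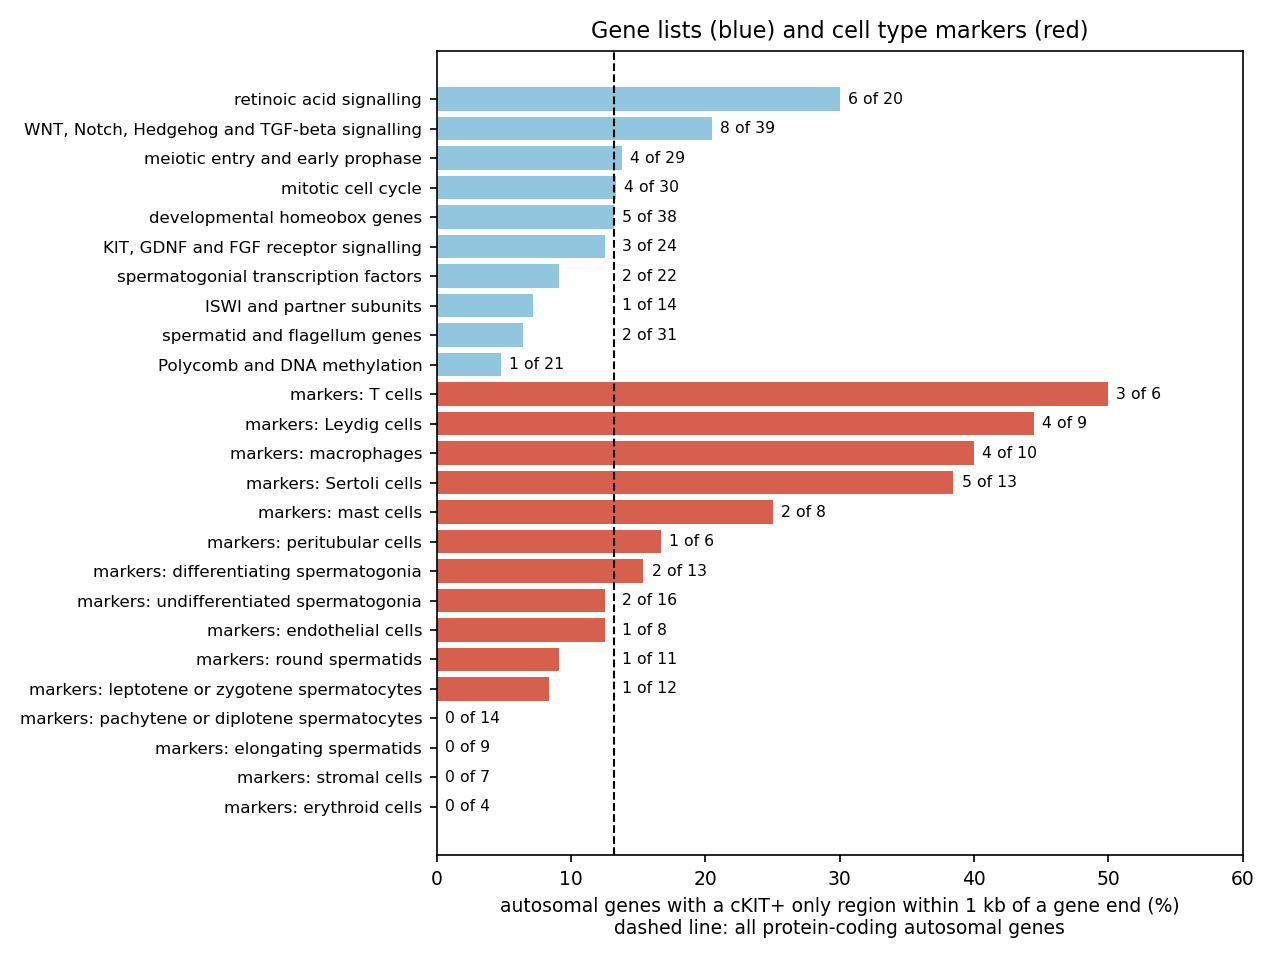
Share of autosomal genes with a cKIT+ only region within 1 kb of a gene end (horizontal axis, percent) for each gene list (blue) and cell type marker list (red), with the counts beside the bars; the dashed line at 13.2% is the share over all protein-coding autosomal genes. Markers of T cells, Leydig cells, macrophages and Sertoli cells stand at 38.5% to 50%, and markers of pachytene or diplotene spermatocytes at 0 of 14.

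Stra8, the retinoic acid target that starts the meiotic program, had a region of 175 bp near its start (chr6:34920084-34920258) with 3.10 and 3.48 in cKO and 3.52 in wild-type replicate 2. It also had a region of all 8 libraries at an end. Cyp26b1, which degrades retinoic acid, had 5.64 and 4.78 in cKO and 3.24 in wild-type replicate 2. Aldh1a1 had 5.62 and 6.23 in cKO and 4.63 in wild-type replicate 2. None of the 5 retinoic acid genes named here had a peak of wild-type replicate 1 in its region, where 11.9% of all cKIT+ only regions had one.

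RNA of these genes was compared between differentiating spermatogonia and pachytene or diplotene spermatocytes of the 2 cKO samples. The class called differentiating spermatogonia held a cluster of 341 of its 640 and 591 of its 1071 cells with Stra8, Dmc1, Tex15, Esco2 and Prss50 among its top genes. Markers of leptotene or zygotene spermatocytes summed to 6407 and 6951 CPM in the class, beside 2136 and 2663 CPM of its own markers. The fit used edgeR's quasi-likelihood test on counts summed per sample and class, with Benjamini-Hochberg adjustment over 18548 genes. Stra8 stood at 358 and 383 CPM in differentiating spermatogonia and 0.768 and 0.729 CPM in pachytene or diplotene spermatocytes. It is on the marker list from which the first class was named, so this difference is a description and is not tested. Cyp26b1 was higher in differentiating spermatogonia by a log2 fold change of 2.77 ± 0.65 (SE, adjusted p = 0.000161). Aldh1a1, Dhrs3 and Rxrg did not pass the threshold of 0.05, with log2 fold changes of 0.70 ± 0.36, 0.03 ± 0.90 and −0.45 ± 1.55. Dhrs3 and Rxrg stood no higher than 1.17 CPM in either class, too low to tell a difference. Of the 4 retinoic acid genes named here beside Stra8, 1 was thus called higher and none lower, which does not show the rest to be unchanged. By mean CPM over the 8 classes, Stra8 was highest in differentiating spermatogonia, Aldh1a1 and Cyp26b1 in Leydig-like cells and Dhrs3 in macrophage-like cells. For Cyp26b1 this rested on sample 1, since in sample 2 Sertoli-like cells stood at 9.096 CPM and Leydig-like cells at 7.997 CPM. Cyp26b1 was also among the top genes of the cluster named stromal cells in both samples. Stromal cells numbered only 24 in sample 1, so they were not among the 8 classes and were not compared.

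Of the cell cycle genes, Mcm5, a subunit of the replicative helicase, was higher in differentiating spermatogonia by 4.51 ± 0.41 (adjusted p = 3.3e-15) and Ccnd3, a G1 cyclin, by 3.31 ± 0.38 (adjusted p = 1e-11). The mitotic cyclin gene Ccnb2 was lower by −2.91 ± 0.33 (adjusted p = 9.4e-12). Of the meiotic genes, Iho1 (1.41 ± 0.38, adjusted p = 0.00101) and Spata22 (1.71 ± 0.44, adjusted p = 0.000487) were higher and Spo11, whose product makes meiotic DNA breaks, was lower at −2.72 ± 0.36 (adjusted p = 1.2e-09). Of the 5 homeobox genes, Hoxa4 was lower at −4.85 ± 0.38 (adjusted p = 9.5e-18) and Hoxd8 at −4.00 ± 0.43 (adjusted p = 1.3e-12). A region at a gene end was thus found with RNA differences in both directions.

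Over all genes with a cKIT+ only region within 1 kb of a gene end, the RNA contrast stood at the background. There were 5614 such genes, of which 3498 matched the single-cell features and 2377 passed the filter on low counts. Of these, 664 (27.9%) were higher in differentiating spermatogonia, where 29.3% of all 18548 genes tested were, and 648 (27.3%) were lower, where 31.3% were. Their median log2 fold change was 0.15, against 0.03 over all genes tested, and it was −0.32 where the region also had to hold a peak of wild-type replicate 1. With a cKIT+ only region at the start, 987 genes were tested and had a median of 0.38, with 245 (24.8%) higher and 208 (21.1%) lower. Genes with a 4C-sorted only region at the start had a median of −3.36, with 145 of 209 lower and 13 higher.

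The 10 largest differences in each direction were picked among these genes, so the choice itself fixed that both directions appear. The regions at Lmo1, Ung and Lrig1 lay at a gene end, more than 1 kb from the gene's RefSeq start. In differentiating spermatogonia Lmo1, a LIM-domain transcription cofactor, had 76 and 190 counts, against 1 and 3 in pachytene or diplotene spermatocytes (log2 fold change 7.86 ± 0.62, adjusted p = 1.9e-17). Erg had 57 and 88 counts against 2 and 2 (7.07 ± 0.67, adjusted p = 1.7e-14), and Ung, which removes uracil from DNA, had 63 and 179 against 5 and 2 (6.96 ± 0.57, adjusted p = 6.1e-17). Lrig1, a negative regulator of growth factor receptors, had 49 and 93 counts against 2 and 1, a ratio of 411 per UMI (exact 95% interval 138 to 2016, counting error only). The edgeR fit, with its own scaling, gave it a log2 fold change of 7.34 ± 0.67 (adjusted p = 4.3e-15). Piwil4, which encodes a PIWI protein of the piRNA pathway, had 8 and 10 counts against none, which makes it at least 52.1-fold higher at a floor of 3 counts over both samples.

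In the other direction, Ankrd55 had 1 and 3 counts in differentiating spermatogonia against 643 and 817 in pachytene or diplotene spermatocytes (−6.39 ± 0.59, adjusted p = 6.4e-15), and −4.56 with doublets kept. Pld1, a phospholipase D gene, had none against 114 and 118, at least 8.91-fold lower at the same floor. Its level was highest in macrophage-like cells.

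Genes with such a region at their start had their highest RNA level in Leydig-like and macrophage-like cells more often than all genes tested did. Of 2191 genes with a region within 1 kb of a RefSeq start, 1536 matched the single-cell features and 987 passed the filter. For 22.8% of the 987 the highest mean CPM among 8 classes was in Leydig-like cells, against 10.0% of all genes tested, and for 21.5% it was in macrophage-like cells, against 10.4%. For 10.4% it was in Sertoli-like cells, against 7.94%, a class in which elongating spermatid markers summed to 21108 and 38453 CPM, beside 10318 and 19738 CPM of Sertoli markers and 8508 and 4558 CPM of pachytene or diplotene markers. Differentiating spermatogonia were the highest class for 8.92%, against 20.4%, and leptotene or zygotene spermatocytes for 4.56%, against 12.1%. The class sums differed in depth, with 291610 and 593972 UMIs in macrophage-like cells and 14320022 and 20583567 in pachytene or diplotene spermatocytes. A few UMIs can thus make the macrophage-like class the highest for a gene of low level. The shares were not compared at equal depth or equal level. Where no region of all 8 libraries lay at a start of the same gene (639 genes), the shares were 24.9% for Leydig-like cells, 22.8% for macrophage-like cells and 4.23% for differentiating spermatogonia, against 9.89%, 10.9% and 12.7% of all genes tested without such a region at a start. With no filter on low counts (1490 genes) they were 20.3%, 18.3% and 11.1%, beside 8.75%, 9.25% and 18.9% of all genes. For the 182 genes whose start also had a peak in cKIT+ wild-type replicate 1, the share of Leydig-like cells was 13.2%, of macrophage-like cells 19.8% and of differentiating spermatogonia 8.24%.

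**Figure D5:**
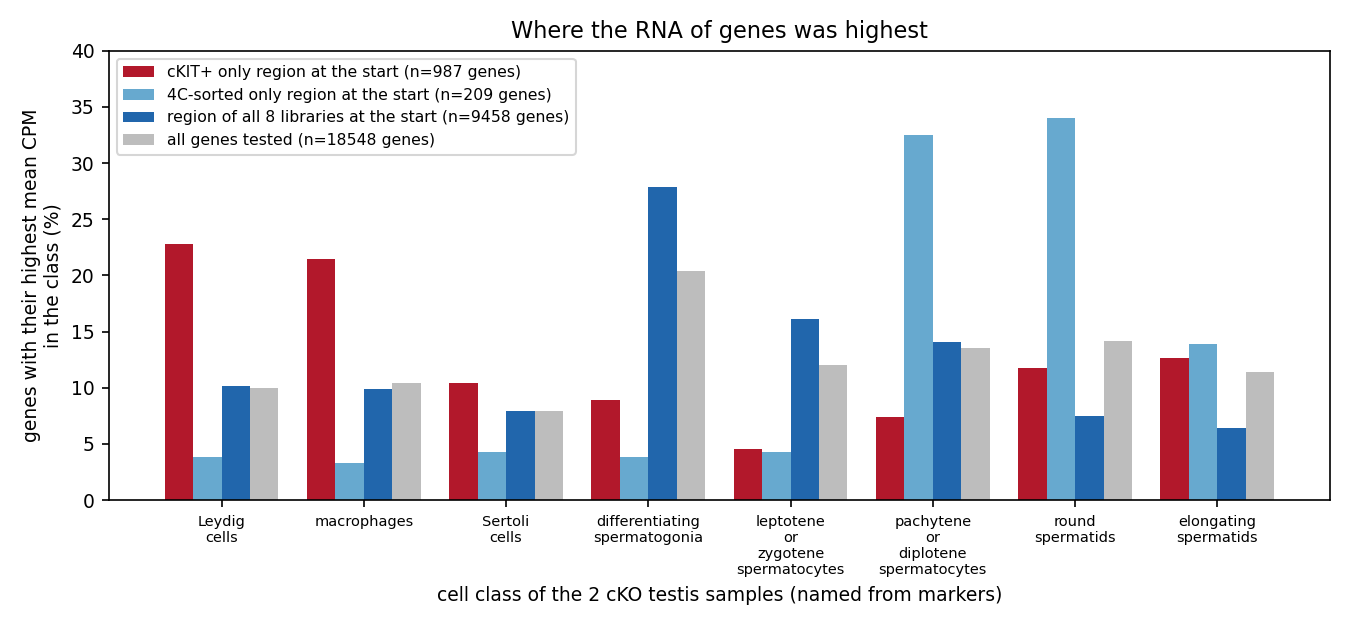
Share of genes (vertical axis, percent) whose mean CPM over the 2 cKO samples was highest in each cell class (horizontal axis), for genes with a cKIT+ only region at the start, a 4C-sorted only region at the start, a region of all 8 libraries at the start, and all genes tested. Genes with a cKIT+ only region stand at 22.8% in Leydig cells and 21.5% in macrophages, and those with a 4C-sorted only region at 32.5% in pachytene or diplotene spermatocytes and 34.0% in round spermatids.

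Tests of the somatic classes over differentiating spermatogonia used the same genes, samples and class sums as the shares by highest class. They describe the same pattern in another way and are no separate support for it. Of the 987 genes, 447 (45.3%) were higher in Leydig-like cells and 94 (9.52%) lower, where 24.8% and 19.0% of all genes tested were. In macrophage-like cells 400 (40.5%) were higher and 76 (7.70%) lower, where 16.1% and 18.1% of all genes were. The macrophage-like class carried Leydig markers at 15041 and 31899 CPM, so its calls are not separate from those of Leydig-like cells. In Sertoli-like cells 377 (38.2%) were higher and 99 (10.0%) lower, where 30.3% and 19.3% of all genes were. Genes with a 4C-sorted only region at the start were higher in Sertoli-like cells more often still, with 123 of 209 (58.9%) and a median of 2.14. The median log2 fold changes of the 987 genes were 1.23, 1.13 and 1.09 in the 3 classes, against 0.19, −0.21 and 0.34 over all genes tested. The filter keeps a gene that is high in any 1 class, for these genes as for the rest.

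At the chromatin level the marker lists of somatic cells differed among themselves. A cKIT+ only region lay at a gene end of 4 of 9 Leydig cell markers (Cyp17a1, Hsd3b6, Star, Nr5a1), 4 of 10 macrophage markers (Csf1r, C1qa, C1qc, Cd74), 5 of 13 Sertoli cell markers (Gata4, Cst9, Cldn11, Ctsl, Defb19), 3 of 6 T cell markers (Cd3e, Trac, Lck) and 2 of 8 mast cell markers (Cma1, Hdc), beside the 13.2% of protein-coding genes. The lists of germ cells had 2 of 13 (differentiating spermatogonia), 2 of 16 (undifferentiated spermatogonia), 1 of 12 (leptotene or zygotene), 0 of 14 (pachytene or diplotene), 1 of 11 (round spermatids) and 0 of 9 (elongating spermatids). The remaining lists had 1 of 6 (peritubular cells), 1 of 8 (endothelial cells), 0 of 7 (stromal cells) and 0 of 4 (erythroid cells).

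Star, which brings cholesterol into mitochondria for steroid synthesis, had a region (chr8:25808290-25808644) with 5.24 and 5.88 in cKO and 5.53 in wild-type replicate 2. Cyp17a1, an enzyme of androgen synthesis, had 6.71 and 7.08 in cKO and 4.95 in wild-type replicate 2. Csf1r, the receptor for macrophage colony-stimulating factor, had 6.26 and 6.45 in cKO and 5.05 in wild-type replicate 2, and C1qa had 4.96 and 4.22 in cKO and 6.80 in wild-type replicate 2. No region named for these somatic and immune lists had a peak in wild-type replicate 1, where 11.9% of all cKIT+ only regions had one. Over so few regions this is not read as a trait of these lists. In RNA, Star stood at 869 and 1011 CPM in Leydig-like cells, against 8.26 and 8.57 in differentiating spermatogonia. Csf1r stood at 412 and 330 CPM in macrophage-like cells, against 0.688 and 2.34 in differentiating spermatogonia. Both are on the lists from which these classes were named, so their levels are a description. Among the 8 classes Cd3e, a chain of the T cell receptor complex, was highest in differentiating spermatogonia at 8.94 and 16.4 CPM. It stood at 0.0698 and 0.0486 CPM in pachytene or diplotene spermatocytes. T cells were not among the 8 classes, as only 14 cells, all of sample 2, were named so.

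Counting any peak in the 3 full cKIT+ lists, 8 of 9 Leydig markers, 5 of 10 macrophage markers and 12 of 13 markers of differentiating spermatogonia had one at a gene end, against 3 of 9, 0 of 10 and 11 of 13 in all 4 lists of 4C-sorted cells. Over all protein-coding genes the shares were 70.3% and 62.0%. In the RNA samples the 9 Leydig markers summed to 37084 and 56034 CPM in Leydig-like cells, against 128 and 140 CPM in differentiating spermatogonia. The 10 macrophage markers summed to 13305 and 17413 CPM in macrophage-like cells, against 39.9 and 87.6 CPM in differentiating spermatogonia. The macrophage-like class also carried Leydig markers at 15041 and 31899 CPM, so its shares and calls are not free of Leydig transcripts. The 8 mast cell markers summed to 4.82 and 7.79 CPM in differentiating spermatogonia, and Cma1, a mast cell protease, was at 0 there. A peak of a sorted pool does not say which of its cells were open, and the part that KIT-positive or other somatic cells in the sorted pools have in these regions was not tested.

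Promoters with a cKIT+ only region within 1 kb of the start were poor in CpG. Over 2495 such windows of 300 bases the median observed over expected CpG ratio was 0.277, against 0.226 over 467 windows with a 4C-sorted only region, 0.783 over 13119 with a region of all 8 libraries and 0.388 over all 31365. Median GC content was 51.0%, against 50%, 62.3% and 53.0% in the same order. A GC box was found in 22.5% of the cKIT+ only windows, against 19.9%, 66.3% and 36.0%. The ETS letters were in 0.882%, against 2.78%, 8.42% and 3.95%, and the NRF1 letters in 0.281%, against 0.214%, 3.91% and 1.73%.

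Some motifs were found more often. The nuclear receptor half-site was in 21.7% of the cKIT+ only windows, against 20.1% of the 4C-sorted only windows, 11.6% of the windows of all 8 libraries and 16.3% of all windows. The AP-1 letters were in 10.5%, against 6.85%, 4.09% and 7.85%. With the start itself covered by the region (1169 windows) the half-site was in 24.0% and the AP-1 letters in 12.3%. The DMRT letters were in 3.81% of the cKIT+ only windows, against 3.43% of the 4C-sorted only windows, 1.27% of the windows of all 8 libraries and 3.01% of all windows. The CCAAT box (34.4% beside 37.3% of all windows), the TATA box (13.6% beside 13.6%), the GATA letters (12.4% beside 11.2%), the STRA8 letters (7.98% beside 7.92%), the MYB letters (12.6% beside 12.2%), the RFX letters (1.28% beside 1.34%) and the SOX letters (0.962% beside 1.02%) stood near the share of all windows. The E-box (5.29% beside 7.14%), the cyclic AMP response element (0.762% beside 1.83%), the E2F letters (0.481% beside 1.06%) and the CTCF letters (6.25% beside 8.39%) were found less often than in all windows. These are matches of letters in one window per start and no test was made on them.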

How the data were processed

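The ATAC files are peak lists that the authors deposited per library; per the submitters' processing notes, cutadapt, Bowtie2 and MACS2 were used on mm10, with versions not given in the sources used here. Per the file headers or column layout, the authors' peaks carry a score, a fold (ratio) over local background, and −log10 p and −log10 q, the lowest −log10 q being 1.00. The authors deposited raw UMI counts made with Cell Ranger 7.1.0 and 9.0.1, per the file headers; Seurat 4.1.0 is named in the submitters' processing notes.

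Peaks overlapping by 1 bp were joined on chromosomes 1 to 19, and regions were placed with RefSeq genes and starts (GRCm38.p6); 25720 genes had a start. Of 47042 autosomal genes 25513 matched an RNA feature. The members and gene lists were chosen with earlier results of these data known, and the RNA comparison with Leydig-like and macrophage-like cells was added after seeing the data. Named regions are the 20 strongest at gene ends, 10 strongest elsewhere, 10 widest, the 10 genes with most regions, every list or marker gene with one, and the 10 largest RNA differences each way; some are named by count only, and 1 gene of the retinoic acid list is not reported here. Cells had at least 1000 UMIs, 500 genes and at most 10% mitochondrial UMIs. This left 8098 and 14262 cells, from which Scrublet (scanpy 1.11.5) removed 685 and 1329 doublets, so that 7413 and 12933 cells remained with median UMIs of 3678 and 4333; 27 barcodes occur in both samples. Genes with a cKIT+ only or 4C-sorted only region within 1 kb of a gene end were barred from the 2000 variable genes. So were genes of chromosomes X and Y and of the mitochondrial genome. Genes on the gene lists or marker lists were not barred for that reason. Leiden clusters (resolution 1) were named from marker lists. UMI sums of a class within a sample were the unit of the tests, over the 8 classes that held 50 or more cells each time (640 and 1071 differentiating spermatogonia, 1547 and 1476 pachytene or diplotene spermatocytes, 653 and 1451 Leydig-like, 142 and 222 macrophage-like cells), with 291610 to 25309990 UMIs a sum. They were tested with edgeR 4.0.16 (filterByExpr, TMM, quasi-likelihood, two-sided) with the sample as a block, since classes of 1 sample share a suspension; DESeq2 1.42.0 was an alternative. The member rule and the RNA test were checked on simulated data. Regions were tested by no statistic, since the rule used their peaks.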

Additional observations from a re-analysis of the deposited data

How the results depend on the processing

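The number of regions, 49808, was 24538 with every peak held to a −log10 q of at least 5, 14571 with all lists cut to equal length, 32342 with at least 50% of the region covered, 5923 with a peak in cKIT+ wild-type replicate 1 required, and 49820 to 61802 with 1 library left out. The share with a peak in that library (11.9%) was 10.0%, 19.0% and 11.5% in the first 3 of these, 12.2% with peaks within 500 bp joined, and 10.8% to 13.3% with 1 library left out. The share at a gene end (11.1%) was 15.3%, 12.0%, 10.6% and 12.6% in the first 4, 10.2% with no 4C-sorted peak within 1 kb, 10.7% with peaks joined, 11.05% to 11.4% with 1 library left out, 3.16% where the end had to be covered and 33.9% within 5 kb. The median RNA difference of 0.15 was 0.39 at the stricter q, −0.32 with the replicate 1 peak required, −0.071 with no filter, 0.51 with DESeq2 (which moved the median of all genes to 0.34), 0.15 without the replicate block, and 0.00 to 0.15 with 1 library or sample left out. The block changed no count of calls by over 1.5 times. The share highest in Leydig-like cells (22.8%) was 27.6% at the stricter q, 29.2% at equal length, 13.2% with the replicate 1 peak required, 20.1% with doublets kept, and 19.9% to 24.1% with 1 left out. The share in macrophage-like cells was 18.3% with no filter and 19.6% to 23.6% with 1 left out, and that in differentiating spermatogonia 11.1% with no filter, 4.23% with no region of all 8 libraries at a start and 8.41% to 9.34% with 1 left out. Genes lower in Leydig-like cells numbered 143 with no filter and 155 with doublets kept, and those lower in macrophage-like cells 48 with DESeq2. For the 20 genes named for their RNA difference, all 140 alternative values kept their direction. Those that came with a test also kept their side of the threshold. Values with 1 sample left out came with no test, so only their direction could be compared. With doublets kept Ankrd55 moved to −4.56, Pld1 to −5.45 (main −8.52) and Piwil4 to 5.17 (main 6.95). With 1 sample left out, under a prior count of 2, Piwil4 was 2.96 to 3.29. Motif shares in windows whose start is covered were 11.6% (TATA box), 0% (NRF1), 14.1% (MYB), 0.599% (SOX), 24.0% (half-site) and 12.3% (AP-1). The causes were not tested. The other alternatives run for the region counts, shares, median and counts of calls stayed within 1.5 times (counts), the 95% binomial interval (shares) or 1 SD between replicates (the median).

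Depth of the peak lists is unknown, so a missing peak sets no limit on accessibility. RNA rests on 2 samples of 1 genotype, so no RNA result here can be set against wild type.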
